A study of Mus musculus with 24 samples.

Results

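The enzymes that make serine and load its carbon onto folate were followed by RNA sequencing in mouse embryonic fibroblasts (MEFs) that lacked Myc, Mlx or both. The 9 genes were chosen by name: Phgdh, Psat1 and Psph of serine synthesis, the serine hydroxymethyltransferases Shmt1 and Shmt2, and the folate enzymes Mthfd1, Mthfd2, Mthfd2l and Mthfd1l. They were 9 of the 41710 genes in each of the 2 tables, and each of the 9 passed the filter on low values in both tables. The series held 24 libraries of poly-A RNA in 8 groups of 3, with WT, MlxKO, MycKO and double knockout (DKO) MEFs as primary cells in one table and as immortalized cells in the other. Myc and Mlx are transcription factors that bind related DNA motifs with different partners, and the comparisons ask what the loss of either or of both does to transcript levels.

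MEFs are fibroblasts grown from embryos, here pooled from embryonic days 14 to 16. The knockout lines carried floxed alleles of Myc, of Mlx or of both, and a CreER recombinase expressed from the ubiquitously active ROSA26 locus. Excision was by 500 nM 4-hydroxytamoxifen (4OHT), for longer in immortalized than in primary cells. The control was the ethanol vehicle in primary cells, and the immortalized WT controls are described as grown without 4OHT. WT cells had intact Myc and Mlx, so in comparisons with WT the exposure to 4OHT and active Cre cannot be told apart from the loss of a gene. DKO and single knockout cells shared that exposure. The study describes its WT lines as alike and took the controls from 1 of them in most cases. Immortalization was by a lentivirus with the SV40 T-antigen and blasticidin selection. In the study's description the primary MycKO and DKO MEFs had stopped growing while every immortalized line proliferated, the knockouts somewhat more slowly than WT. It also describes most immortalized MycKO cells, unlike DKO cells, as tetraploid or pseudo-tetraploid. The part of ploidy in the values below was not tested. The 3 libraries of a group came from triplicate sets of RNA, which the study calls biological replicates. By its description the cells of each floxed group's embryos were pooled, so the libraries of a knockout group share a pool. DKO and single knockout cells thus came from different pools, and genotype and pool cannot be told apart there. Which pool gave the WT libraries is not given, so the same may hold against WT. How many cultures the libraries stand for is not given in the sources used here, and the p-values measure the spread between these libraries.

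In background, Phgdh, Psat1 and Psph turn the glycolytic intermediate 3-phosphoglycerate into serine in consecutive steps. Shmt2 in mitochondria and Shmt1 in the cytosol split serine into glycine and a carbon unit carried by tetrahydrofolate. Mthfd2 and its paralog Mthfd2l oxidize that unit in mitochondria, Mthfd1l releases it there as formate, and the cytosolic Mthfd1 takes up formate for purine and thymidylate synthesis. Many of these genes are textbook targets of the amino acid response factor ATF4, and Myc is known to bind several of them. Mlx, as the partner of MondoA and ChREBP, binds a pair of E-boxes in genes that answer to glucose.

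Because both networks read the E-box CACGTG, the sequence around each start site is given before the values. Start sites were those of the canonical transcripts of GENCODE vM39 on GRCm39. In the window from 250 bases before to 50 after the start, CACGTG was found in 0 of the 9 genes on either strand, against 7.86% of the 21590 windows of the same length. In the wider window of 1000 bases on each side it was found in 6 of 9, against 27.8% of all genes: Shmt1, Shmt2, Mthfd1, Mthfd2, Mthfd2l and Mthfd1l. The 3 serine synthesis genes had none in either window. The carbohydrate response element in its perfect form, a pair of CACGTG boxes 5 bases apart that Mlx complexes read, was in 0 of 9 in both windows and in 0.0139% of the wide windows of all genes. The ATF4-type element TGATGNAA was in 0 of 9 short windows, against 3.84% of all genes, and in 4 of 9 wide windows, against 22%: Phgdh, Shmt2, Mthfd2 and Mthfd1l. These matches describe the sequence only, and they are neither binding sites nor causes of what was measured.

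The E-box matches nearest to a start are shown for the genes in which expression moved, with CACGTG in capitals, 5′ to 3′ on the strand of the gene. The Shmt1 matches lie in the untranslated part of exon 1 at chr11:60702015-60702044 and chr11:60701987-60702016 (minus strand, GRCm39). That of Mthfd1 lies in the untranslated part of exon 1 at chr12:76302178-76302207 (plus strand). Those of Shmt2 and Mthfd2 lie in intron 1 at chr10:127358063-127358092 and chr6:83294262-83294291 (minus strand), and those of Mthfd1l lie upstream at chr10:3922455-3922484 and in intron 1 at chr10:3923722-3923751 (plus strand). The match of Mthfd2l, which did not move, lies upstream at chr5:91078183-91078212 (plus strand) and is shown beside its paralog.
Shmt1, 64 bases after the start: gacgtggtgtgtCACGTGgtggggaggctg
Shmt1, 92 bases after the start: tggttcccggagCACGTGctgggctgttag
Mthfd1, 206 bases after the start: gaggtccctgagCACGTGggttgtgctgtc
Shmt2, 241 bases after the start: ggctccttgctgCACGTGttctggggcctc
Mthfd2, 325 bases after the start: ggcaccggggtgCACGTGgagatgcggacg
Mthfd1l, 605 bases before the start: agaggaggagggCACGTGgaattgggcaag
Mthfd1l, 662 bases after the start: cacgccccgctcCACGTGcaccgcccgcct
Mthfd2l, 772 bases before the start: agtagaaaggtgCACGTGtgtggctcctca

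The ATF4-type matches lie in intron 1 of their genes and are shown with TGATGNAA, or its reverse complement, in capitals. Phgdh is the only serine synthesis gene with either element in these windows, at chr3:98246524-98246553 (minus strand). The pair in Shmt2 lies at chr10:127357815-127357844 and chr10:127357793-127357822 (minus strand), that of Mthfd2 at chr6:83294151-83294180 (minus strand) and that of Mthfd1l at chr10:3923748-3923777 (plus strand).
Phgdh, 764 bases after the start: cgccttttgtcTGATGCAAgaccttggcgc
Shmt2, 488 bases after the start: agctatggagaTGATGCAAccgagcctcag
Shmt2, 510 bases after the start: agcctcagtacTTTCATCAcgcaagggtcc
Mthfd2, 435 bases after the start: ttgctgcagtcTGATGAAAtctgtgagccg
Mthfd1l, 687 bases after the start: gcctccggctcTGATGCAAccgcgccgggc

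Libraries held between 15986856 and 20966163 reads on genes, and the 9 genes had between 60 and 8965 reads in a library. For the lowest counts, those of Shmt1 in primary DKO cells, counting error is at least as large as the spread seen between libraries. Levels are in CPM, the signal the authors deposited, scaled between libraries in a way not given in the sources used here. Myc was at 93.9 ± 5.46 CPM (SD, n = 3, as everywhere below) in primary WT cells, 26.5 ± 0.563 in MycKO and 21.5 ± 1.47 in DKO cells. Mlx was at 23.7 ± 2.84 CPM in primary WT, 13.5 ± 0.480 in MlxKO and 11.2 ± 1.25 in DKO cells. In immortalized DKO cells the difference in Mlx did not pass the threshold (log2 difference -0.44, adjusted p = 0.0694, limma). For both the primary and the immortalized lines the study reports excision by qPCR and loss of the proteins by immunoblot. Only some exons of Myc and of Mlx were floxed, and which exons the remaining reads cover was not tested. Immortalized WT library 3 stood apart: it correlated with the other WT libraries at 0.943 to 0.950, against 0.983 to 0.996 for the other 10 pairs of libraries within an immortalized group, and its Myc was at 177 CPM against 48.1 and 39.9. Results that rest on it are therefore given with and without it. The fibroblast markers were detected in every group, 7 of 7, at a summed 34309.7 to 46392.7 CPM in primary and 13546.0 to 26999.9 CPM in immortalized cells.

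Per kilobase of canonical transcript, the same 4 genes led in each of the 8 groups: Phgdh, Psat1, Shmt2 and Mthfd2. In primary WT cells their levels were 182 ± 5.65, 152 ± 0.997, 90.7 ± 4.86 and 63.1 ± 1.75 CPM per kilobase. Mthfd1, Mthfd1l and Psph followed at 19.1 ± 0.735, 18.4 ± 0.304 and 15.6 ± 1.25, where Mthfd1 and Mthfd1l did not differ beyond their spread. Shmt1 at 5.08 ± 0.0397 and Mthfd2l at 4.19 ± 0.809 were lowest. In each of the 8 groups Shmt2 stood above the cytosolic Shmt1, and Mthfd2 above its mitochondrial paralog Mthfd2l. Phgdh had the highest mean in 7 groups and Psat1 in immortalized WT cells. In 2 groups the pair lay within their spread, with Psat1 at 170.1 ± 13.3 and Phgdh at 157 ± 10.5 CPM per kilobase in immortalized WT cells and at 125 ± 8.85 and 129 ± 8.73 in immortalized DKO cells.

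Counting limits differ between the genes. Of the 50-base stretches of the Phgdh transcripts, 28.1% recur in other annotated genes, mainly processed pseudogenes, so its level is the least certain. For the other 8 genes the share was at most 1.45%. Exons of 3 protein-coding genes overlap on the opposite strand, namely Cct6a with 6.32% of the exon bases of Psph, Smcr8 with 5.34% of those of Shmt1 and Ndufa4l2 with 17.7% of those of Shmt2. The kit marks strand, but whether the counting used it is not given in the sources used here. Without it, reads from the overlap cannot be assigned to either gene.

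In primary MycKO cells 8 of the 9 genes were lower than in WT, and Mthfd2l was the exception. The largest differences were those of Mthfd1l, Shmt1 and Psat1, at 1.93-, 1.91- and 1.79-fold, and the smallest were those of Phgdh, Mthfd2 and Psph, at 1.1996-, 1.23- and 1.25-fold. Of all 13101 genes tested, 42.3% passed in this comparison and 21.9% were lower. The median of the 9 was -0.63 on the log2 scale, where that of all genes was 0.00.

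In the serine synthesis arm, Psat1, the aminotransferase, was at 398, 402 and 397 CPM in WT and at 215, 239 and 212 in MycKO libraries. The groups were far apart, with a log2 difference of -0.84 (SE 0.0641, adjusted p = 4.42e-08, limma). Phgdh, which catalyzes the committed step, was at 355, 345 and 334 CPM in WT and 288, 271 and 303 in MycKO cells, so that the groups did not overlap but lay close together (log2 difference -0.26, SE 0.0658, adjusted p = 0.00410, limma). Psph, the phosphatase, was at 38.7, 34.4 and 40.3 CPM against 29.9, 28.3 and 31.6 (log2 difference -0.33, SE 0.0766, adjusted p = 0.00251, limma). The 3 steps of the arm therefore did not fall by the same amount, with Psat1 falling most. Its antisense neighbour Cct6a fell beside Psph, at 322 ± 11.7 CPM in WT and 215 ± 4.80 in MycKO cells, and its part in the Psph value was not tested.

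Both hydroxymethyltransferases fell. Shmt1, the cytosolic form, was at 14.4, 14.7 and 14.5 CPM in WT and 7.37, 7.39 and 6.68 in MycKO libraries (log2 difference -0.93, SE 0.104, adjusted p = 2.38e-06, limma). Shmt2, the mitochondrial form, was at 214, 215 and 195 CPM in WT and 137, 112 and 133 in MycKO libraries (log2 difference -0.71, SE 0.0748, adjusted p = 1.28e-06, limma). Neither gene had overlapping groups. Smcr8, antisense to Shmt1, was at 60.7 ± 0.366 CPM in WT and 66.7 ± 2.68 in MycKO cells, opposite in direction.

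Among the folate enzymes, Mthfd1l, the mitochondrial formate-producing synthetase, was at 68.3, 69.4 and 67.1 CPM in WT and 33.1, 36.8 and 34.7 in MycKO libraries (log2 difference -0.95, SE 0.0683, adjusted p = 2.53e-08, limma). The trifunctional cytosolic Mthfd1 was at 63.5, 66.4 and 61.5 CPM against 38.6, 38.7 and 46.0 (log2 difference -0.63, SE 0.0805, adjusted p = 1.08e-05, limma). Mthfd2, the mitochondrial dehydrogenase of proliferating cells, moved less, from 133, 129 and 136 CPM to 105, 114 and 106 (log2 difference -0.29, SE 0.0614, adjusted p = 0.00104, limma). Its paralog Mthfd2l was at 8.18, 9.29 and 11.9 CPM in WT and 7.76, 11.3 and 8.27 in MycKO libraries. Those groups overlapped fully, and the log2 difference of -0.09 had a 95% interval from -0.39 to 0.21, which leaves out a fall of the size seen for Psat1, Shmt1, Shmt2, Mthfd1 or Mthfd1l. Libraries did not overlap for 8 of the 9 genes, as for 48.1% of all genes tested.

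**Figure D1:**
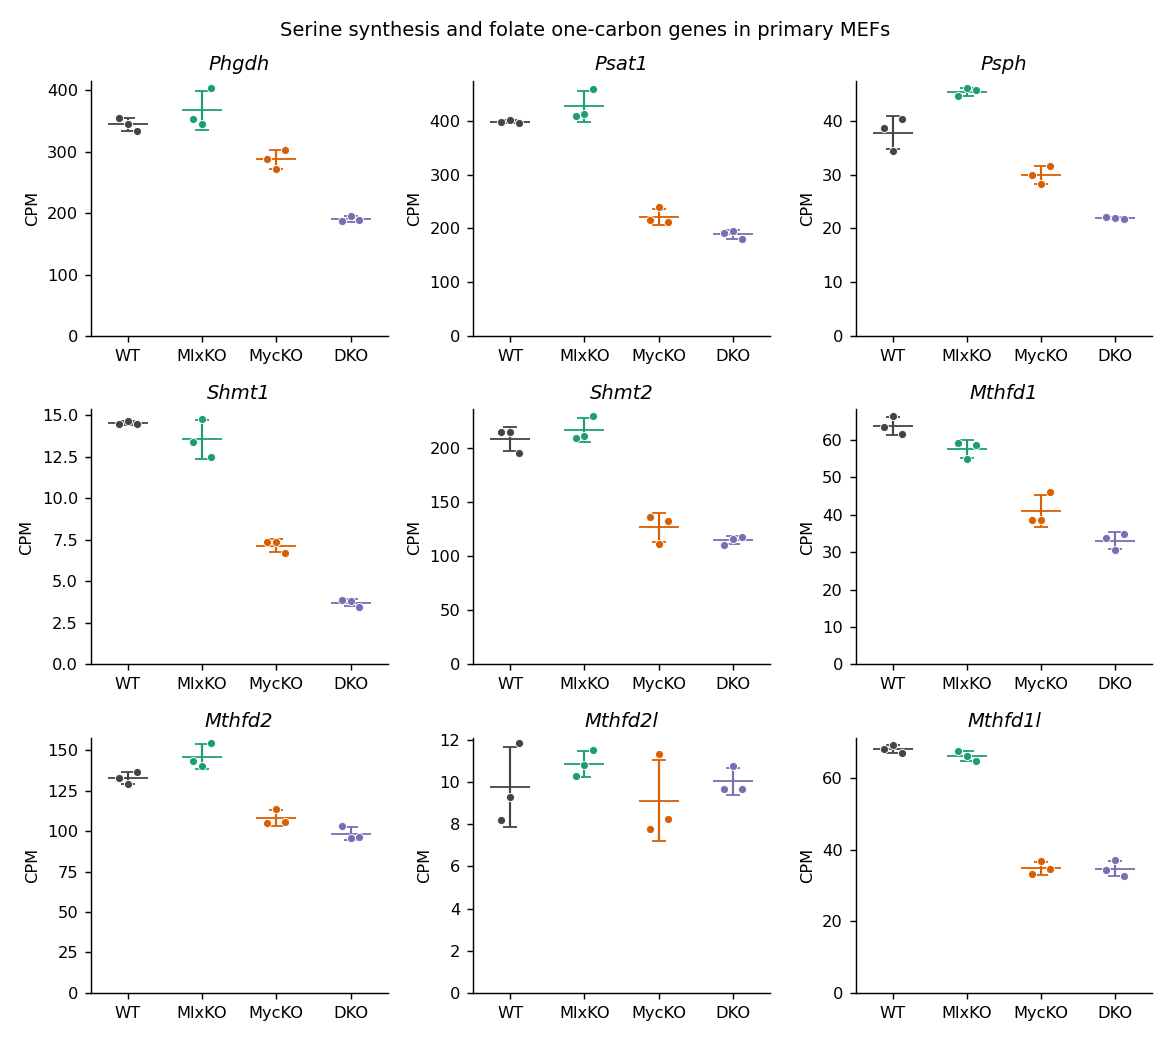
Levels in CPM of the 9 genes in the 4 groups of primary MEFs, with 3 libraries a group as points, the mean as a horizontal line and the SD as bars, each axis from 0. The MycKO and DKO libraries lie below every WT library for each gene except Mthfd2l, and for Phgdh, Psph and Shmt1 the DKO libraries lie well below the MycKO libraries.

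In primary DKO cells the same 8 genes were lower than in WT, with 49.5% of all genes tested past the threshold and 25.5% lower. Shmt1 stood out at 3.88, 3.80 and 3.46 CPM in DKO libraries, 3.30-fold below WT (log2 difference -1.72, SE 0.104, adjusted p = 2.16e-09, limma). Psat1 at 192, 195 and 180.3 CPM was 2.10-fold below WT, and Mthfd1l, Mthfd1, Phgdh and Shmt2 were 1.94-, 1.90-, 1.81- and 1.81-fold below. Ndufa4l2, antisense to Shmt2, was at 2.92 ± 0.638 CPM in WT and 17.4 ± 1.90 in DKO cells, opposite in direction to Shmt2. Psph and Mthfd2 were 1.69- and 1.34-fold below WT, and Mthfd2l at 9.66, 10.8 and 9.68 CPM lay within the WT range (log2 difference 0.05, 95% interval -0.25 to 0.35). Against MlxKO cells, where 49.1% of all genes tested passed and 25.9% were lower, the same 8 were lower in DKO cells, by 1.48-fold for Mthfd2 to 3.08-fold for Shmt1. In either comparison the libraries of 8 of 9 genes did not overlap, as for 60.8% and 60.9% of all genes tested.

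These counts of 8 were not sensitive to scaling: 8 of 9 were lower under each scaling tried, whereas dividing reads by library totals moved the share of all calls that were higher from 48.3% to 31.4% in MycKO, from 48.5% to 37.2% in DKO cells against WT and from 47.3% to 32.4% in DKO against MlxKO cells. None of the 24 calls was lost under any alternative or any omitted library.

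Of the 9 genes, 1 differed between primary MlxKO and WT cells, where 8.88% of all genes tested passed and 3.75% were higher. Psph was at 44.6, 46.1 and 45.6 CPM in MlxKO libraries, above all 3 WT libraries, and passed narrowly (log2 difference 0.26, SE 0.0766, adjusted p = 0.0426, limma). For 4 of 9 genes the libraries did not overlap, as for 28.3% of all genes tested. The Psph call was lost with median-ratio scaling, with only the compared groups in the fit (adjusted p = 0.0548 to 0.0569) and without WT library 1 or 2 or any one of MlxKO libraries 1, 2 and 3 (adjusted p = 0.0777 to 0.210), which leaves 0 genes called. For the other 8 the log2 differences lay between -0.14 for Mthfd1 (95% interval -0.31 to 0.03, adjusted p = 0.295) and 0.15 for Mthfd2l (95% interval -0.15 to 0.45, adjusted p = 0.559). Mthfd2 at 143, 139.9 and 155 CPM lay above every WT library without passing (log2 difference 0.14, adjusted p = 0.187, limma), and Shmt1 at 13.4, 14.8 and 12.5 CPM straddled WT (log2 difference -0.10, adjusted p = 0.620, limma).

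**Figure D2:**
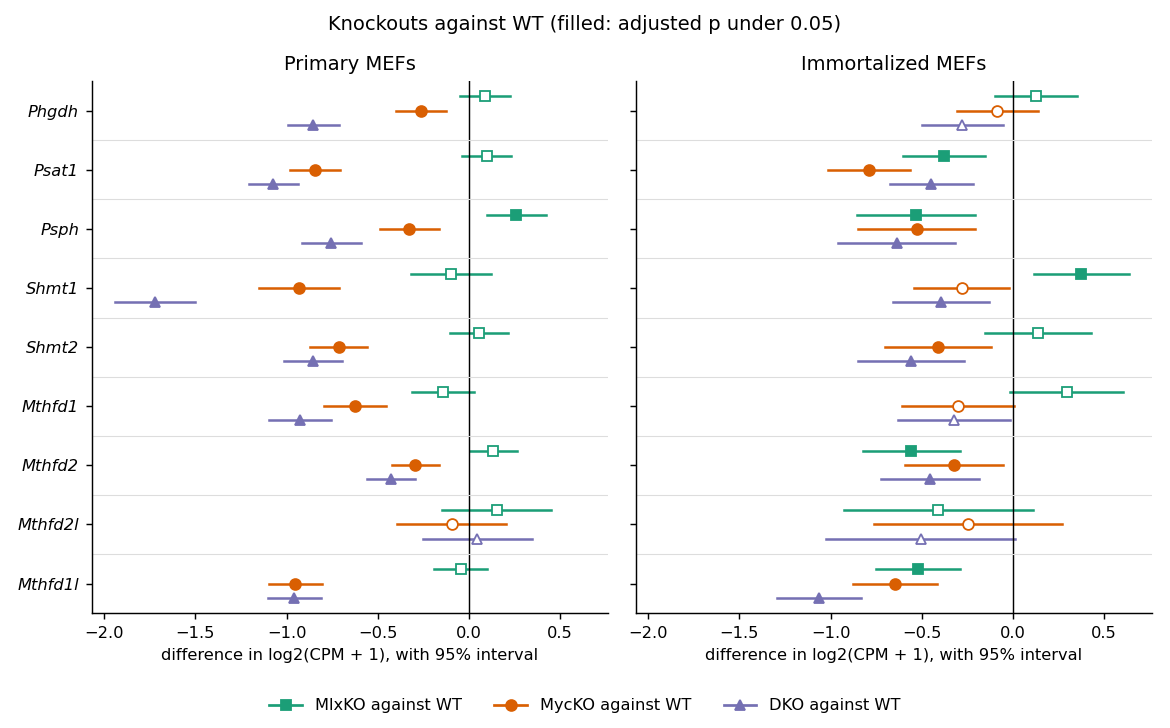
Log2 difference from WT of the 9 genes in MlxKO, MycKO and DKO cells, primary on the left and immortalized on the right, with 95% intervals and with filled symbols where the adjusted p is under 0.05. In primary cells the DKO and MycKO values of 8 genes lie left of 0, from -1.72 to -0.26. Those of Mthfd2l lie at 0.05 and -0.09, with intervals that cross 0. In immortalized cells the intervals are wider, and Shmt1 in MlxKO cells lies right of 0 at 0.38.

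In primary cells without Myc, serine synthesis genes were lower where Mlx was lost too, though genotype and pool cannot be told apart here. In DKO against MycKO cells 5 of 9 genes were lower, with 21.5% of all genes tested past the threshold and 11% lower. Phgdh was at 188, 195 and 188 CPM in DKO against 288, 271 and 303 in MycKO libraries (log2 difference -0.59, SE 0.0658, adjusted p = 5.37e-06, limma), with no overlap. Psph was at 22.18, 22.02 and 21.71 CPM against 29.9, 28.3 and 31.6 (log2 difference -0.43, adjusted p = 0.000642, limma), while its antisense neighbour Cct6a was at 192 ± 5.68 against 215 ± 4.80 CPM. Shmt1 was 1.73-fold lower (log2 difference -0.79, adjusted p = 3.26e-05, limma). These 3 calls were kept under every alternative and omission.

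The other calls in that comparison were weaker. Psat1 differed by -0.23 on the log2 scale (adjusted p = 0.0162, limma), and its call was lost without DKO library 3 (adjusted p = 0.0887). Mthfd1 differed by -0.30 (adjusted p = 0.0120, limma), a call lost without MycKO library 3 or without DKO library 2 (adjusted p = 0.0718 in either case). The mitochondrial folate genes showed no further fall that passed: Mthfd1l was at 34.4, 37.0 and 32.8 CPM in DKO and 33.1, 36.8 and 34.7 in MycKO cells, with a log2 difference of -0.01 (95% interval -0.15 to 0.14). Shmt2 and Mthfd2 differed by -0.14 and -0.13 (adjusted p = 0.212 and 0.140, limma), and Mthfd2l did not pass either (adjusted p = 0.541). Without MycKO library 2, however, Shmt2 passed (log2 difference -0.23, adjusted p = 0.0108, limma). Libraries did not overlap for 6 of 9 genes, the 5 called and Mthfd2, as for 36.9% of all genes tested.

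The interaction term is the DKO against MycKO difference minus the MlxKO against WT difference. It asks whether Mlx loss acts differently with Myc present and with Myc absent. Of these groups only WT lacked 4OHT and active Cre, so an effect of that exposure does not cancel. The knockout groups also came from different pools, and an effect of pool need not cancel either. The term cannot tell an effect of exposure or of pool apart from a dependence on Myc. In primary cells it passed for 4 of 9 genes, each negative, with 13.5% of all genes tested past the threshold and 6.07% negative. Shmt1 and Psph had -0.69 (adjusted p = 0.00380 and 0.000323, limma) and Phgdh -0.68 (adjusted p = 9.18e-05, limma). Psat1 had -0.33 (adjusted p = 0.0223, limma), a call lost without WT library 1, MlxKO library 3 or DKO library 3 (adjusted p = 0.0501 to 0.0722). Each of the 3 serine synthesis enzymes thus had a negative term that passed. Mthfd2 lay at the threshold with -0.27 (adjusted p = 0.0503, limma), and Shmt2, Mthfd1, Mthfd1l and Mthfd2l did not pass (adjusted p = 0.268 to 0.980). Without MycKO library 2 the term of Shmt2 passed at -0.28 (adjusted p = 0.0235, limma).

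**Figure D3:**
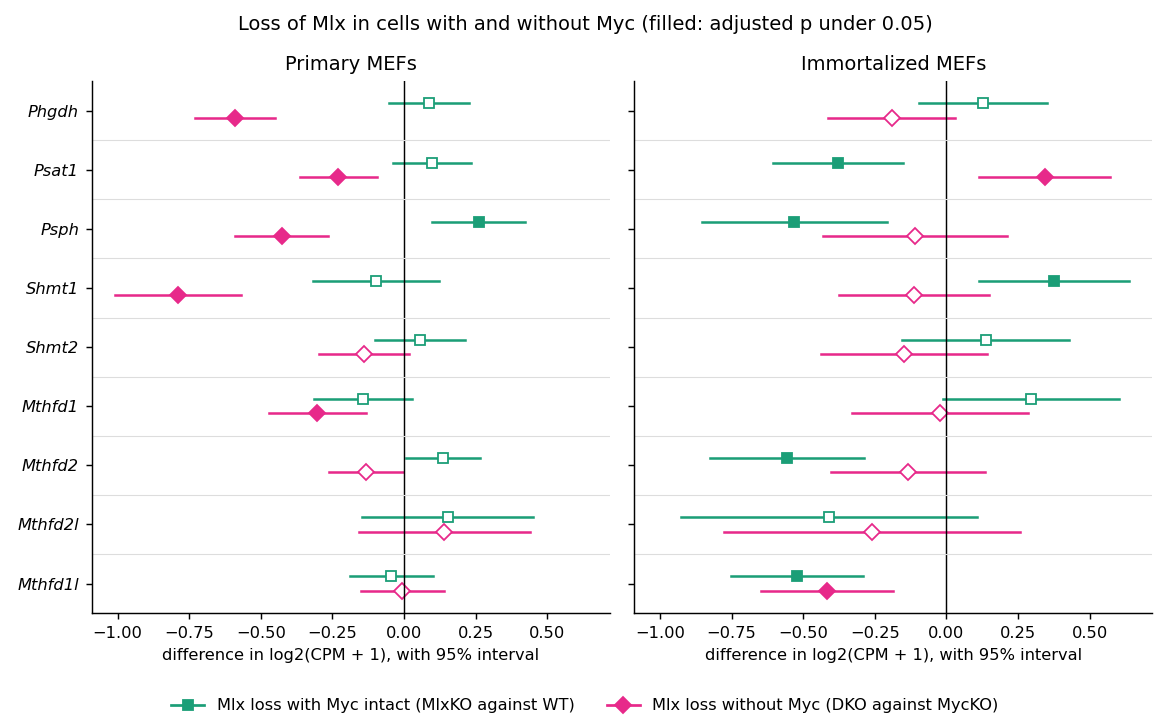
Log2 difference after loss of Mlx in cells with Myc (MlxKO against WT, squares) and without Myc (DKO against MycKO, diamonds), with 95% intervals and filled symbols where the adjusted p is under 0.05. In primary cells Phgdh, Psat1, Psph and Shmt1 are near or above 0 with Myc and below 0 without it, and in immortalized cells Psat1 goes the other way, from -0.38 to 0.34.

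Other features of the cells also differed between the primary groups. Of all genes tested, 21.9% were lower in MycKO and 25.5% in DKO cells against WT, and 8.88% passed in MlxKO cells. The proliferation markers were lower in 8 of 8 genes in MycKO, MlxKO and DKO cells against WT, and their sum was 999.7 to 1049.6 CPM in WT, 798 to 842 in MlxKO, 588 to 715 in MycKO and 482 to 511 in DKO libraries. The macrophage markers, a sign of other cells in the cultures, were lower in 8 of 8 genes in MycKO and DKO cells, at a summed 274 to 524 CPM in WT, 301 to 371 in MlxKO, 47.7 to 70.0 in MycKO and 94.3 to 219 in DKO libraries, with none of the 8 at 0 in any group. Epithelial markers summed to 16.1 to 19.3 CPM in WT and 1.497 to 4.36 in the knockouts, and endothelial markers to 13.52 to 14.03 against 2.99 to 7.98. Muscle markers summed to 76.6 to 85.5 in WT and 76.8 to 83.2 in DKO against 28.1 to 43.0 in the single knockouts. In WT and in DKO cells 3 of the 4 muscle markers were at 0 in every library, so those sums rest on a single gene and do not show muscle cells. Neural markers summed to 82.9 to 100.4 CPM in WT, 73.7 to 79.4 in MlxKO and 123 to 154 in MycKO and DKO libraries. The part of proliferation or of these cells in the values of the 9 genes was not tested, and in bulk RNA fewer cells of a type and less RNA per cell cannot be told apart. In MlxKO cells the proliferation markers had a median of -0.33 on the log2 scale and the 9 genes one of 0.09.

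In immortalized cells the proliferation markers summed to 1920.96 to 2581.6 CPM over the 4 groups, and their median difference from WT was 0.04 in MycKO and -0.02 in DKO cells. In MycKO cells 5 of 9 genes were lower than in WT, with 48% of all genes tested past the threshold and 23.5% lower. Psat1 was at 466, 405 and 465 CPM in WT and 284, 242 and 247 in MycKO libraries, again the clearest of the serine synthesis genes (log2 difference -0.79, SE 0.104, adjusted p = 9.25e-05, limma). Mthfd1l was at 88.8, 78.2 and 96.9 CPM against 53.7, 58.2 and 55.0 (log2 difference -0.65, SE 0.106, adjusted p = 0.000435, limma). Both calls were kept under every alternative and omission.

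The 3 other calls were less firm. Psph was at 51.4, 39.4 and 46.1 CPM in WT and 39.5, 25.97 and 29.5 in MycKO cells, where the groups overlapped (log2 difference -0.53, adjusted p = 0.0117, limma), and the call was lost without WT library 1 or MycKO library 2 (adjusted p = 0.0528 to 0.0543) and with only the compared groups in the fit (adjusted p = 0.0677). Shmt2 was at 147, 141 and 171 CPM against 108, 119 and 117 (log2 difference -0.41, adjusted p = 0.0240, limma), lost without WT library 3 or MycKO library 1 or 3 (adjusted p = 0.0509 to 0.0664). Mthfd2 was at 135, 107 and 135 CPM against 106, 92.7 and 101 (log2 difference -0.32, adjusted p = 0.0474, limma), lost without WT library 1 or 3 or MycKO library 2 or 3 (adjusted p = 0.0905 to 0.152) and under 4 other settings (adjusted p = 0.0519 to 0.112). Without any 1 of these 4 libraries, WT 1 or 3 or MycKO 2 or 3, the count was 3 of 9.

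Phgdh was at 309.8, 307 and 274 CPM in immortalized WT and 268, 288 and 283 in MycKO cells, overlapping groups with a log2 difference of -0.09 (95% interval -0.31 to 0.14). Shmt1 at 22.9, 23.1 and 19.6 CPM lay below all WT libraries at 24.1, 28.9 and 27.3 without passing (log2 difference -0.28, adjusted p = 0.0715, limma). Mthfd1 at 53.2, 65.0 and 60.5 CPM differed from WT by -0.30 (adjusted p = 0.0999, limma) and by -0.14 (adjusted p = 0.335) without WT library 3, which held 91.4 CPM against 64.6 and 66.5. Mthfd2l was at 35.4 CPM in that library against 19.8 and 17.0 in the other WT libraries, and its difference of -0.25 became 0.06 without it. Libraries did not overlap for 5 of 9 genes, as for 51.1% of all genes tested.

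Differences of immortalized MlxKO from WT cells went in both directions, with 4 genes lower and 1 higher. Of all genes tested 38.9% passed, 19.9% lower and 19.1% higher. Mthfd2 was at 85.2, 80.8 and 88.1 CPM in MlxKO libraries, below every WT library (log2 difference -0.56, SE 0.123, adjusted p = 0.00468, limma), and Mthfd1l was at 58.2, 66.5 and 57.8 CPM (log2 difference -0.52, SE 0.106, adjusted p = 0.00303, limma). These 2 calls were kept under every alternative and omission. Psph at 31.0, 32.5 and 29.9 CPM (log2 difference -0.53, adjusted p = 0.0149, limma) and Psat1 at 346, 335 and 345 CPM (log2 difference -0.38, adjusted p = 0.0143, limma) were also below every WT library.

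Shmt1 was the gene that rose, at 35.7, 36.5 and 32.7 CPM in MlxKO against 24.1, 28.9 and 27.3 in WT libraries (log2 difference 0.38, adjusted p = 0.0277, limma). Its call was lost without WT library 1 or any one of MlxKO libraries 1, 2 and 3 (adjusted p = 0.0506 to 0.107) and with only the compared groups in the fit (adjusted p = 0.0601). The calls of Psph and Psat1 were lost without WT library 1, without MlxKO library 3 for Psph or 2 for Psat1 (adjusted p = 0.0551 to 0.0644), and with reads divided by library totals (adjusted p = 0.0672 and 0.118). That scaling moved the median of all genes by 0.15 and the share of all calls that were higher from 49.0% to 69.9%, and the split of the 9 genes became 3 higher (Phgdh, Shmt1 and Mthfd1) and 2 lower (Mthfd2 and Mthfd1l). The count was 2 of 9 without WT library 1, 3 without MlxKO library 2 or 3, and 6 without WT library 3, where Mthfd1 joined (log2 difference 0.45, adjusted p = 0.00737, limma). Phgdh and Shmt2 differed from WT by 0.13 and 0.14 (95% intervals -0.10 to 0.35 and -0.15 to 0.43), and Mthfd1 and Mthfd2l by 0.29 and -0.41 (adjusted p = 0.116 and 0.187, limma). Libraries did not overlap for 5 of 9 genes, as for 49.1% of all genes tested.

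In immortalized DKO cells 6 of 9 genes were below WT, with 18.9% of all genes tested past the threshold and 8.51% lower. Mthfd1l was at 39.7, 43.5 and 41.0 CPM, 2.09-fold below WT (log2 difference -1.07, SE 0.106, adjusted p = 5.33e-05, limma), and was the lowest of the 4 groups with no overlap. Psph at 29.4, 28.8 and 28.3 CPM was 1.55-fold below WT (log2 difference -0.64, SE 0.148, adjusted p = 0.0123, limma). Both calls were kept under every alternative and omission. Shmt2, Mthfd2, Psat1 and Shmt1 were also below WT, with log2 differences of -0.56, -0.46, -0.45 and -0.40 (adjusted p = 0.0140, 0.0239, 0.0126 and 0.0394, limma), and each lost its call without some library: Psat1 without DKO 1, Shmt2 without DKO 2, Mthfd2 without WT 1, DKO 1 or DKO 2, and Shmt1 without WT 2 or 3 or any one of DKO 1, 2 and 3 (adjusted p = 0.0502 to 0.130).

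The count in immortalized DKO cells was 3 without DKO library 1 or 2, 6 without WT library 3, and 2 with only the compared groups in the fit, where Psph and Mthfd1l remained. Phgdh at 262, 229 and 243 CPM lay below every WT library (log2 difference -0.28, adjusted p = 0.0776, limma) and passed without WT library 3 (log2 difference -0.33, adjusted p = 0.0345). Mthfd1 and Mthfd2l differed by -0.32 and -0.51 (adjusted p = 0.129 and 0.152, limma). Libraries did not overlap for 8 of 9 genes, Mthfd2l being the exception, as for 37.1% of all genes tested.

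**Figure D4:**
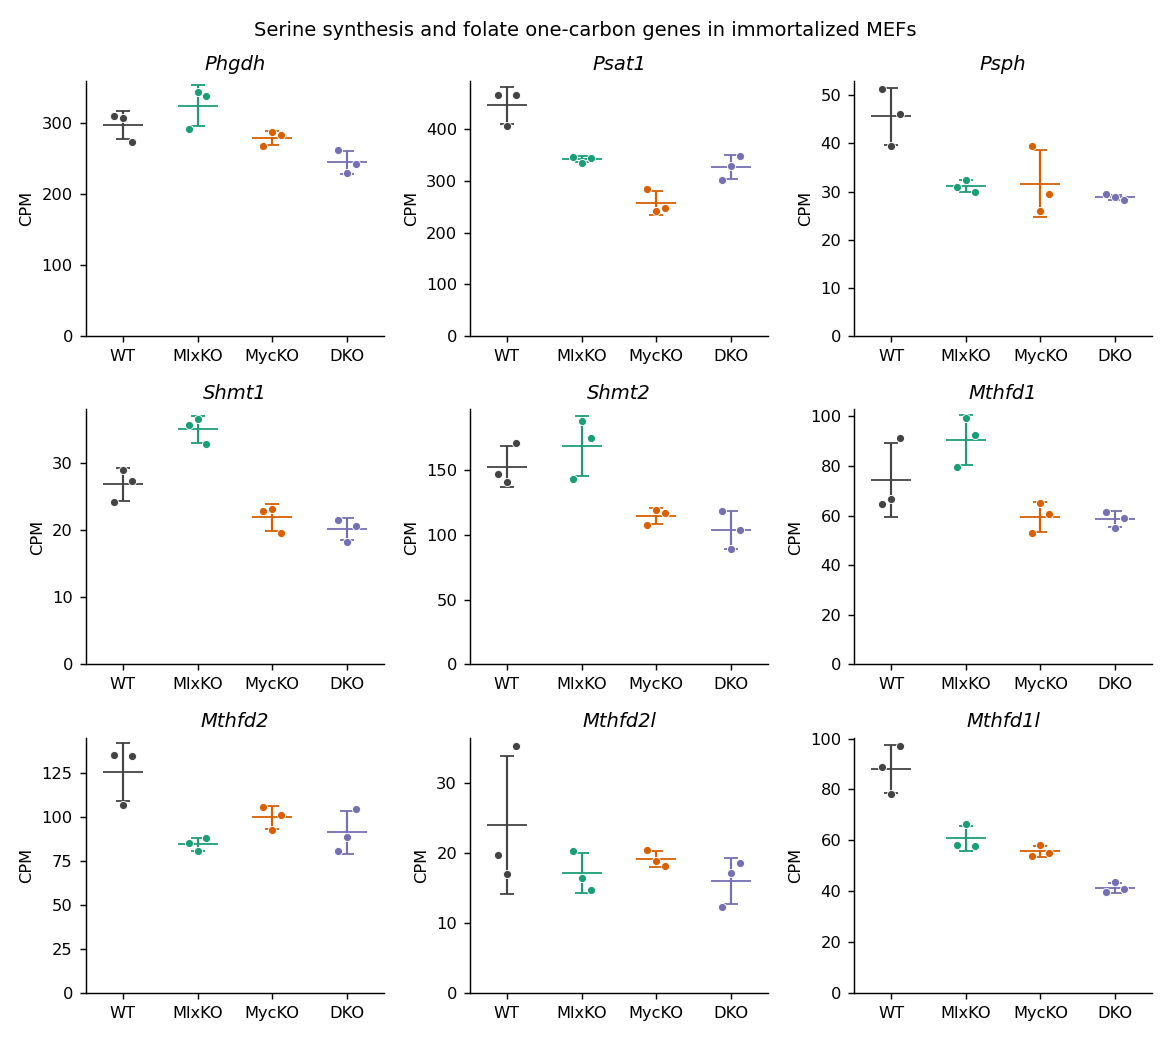
Levels in CPM of the 9 genes in the 4 groups of immortalized MEFs, with 3 libraries a group as points, the mean as a horizontal line and the SD as bars, each axis from 0. Mthfd1l descends from WT at 88.0 to DKO at 41.4, Shmt1 is highest in MlxKO cells at 35.0, and a WT library stands above the others for Mthfd1 at 91.4 and Mthfd2l at 35.4.

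In immortalized DKO against MycKO cells, where 29.4% of all genes tested passed, 14.6% lower and 14.8% higher, Mthfd1l was lower by 1.34-fold (log2 difference -0.42, adjusted p = 0.0105, limma). Psat1 was higher, at 302, 329 and 349 CPM against 284, 242 and 247 (log2 difference 0.34, adjusted p = 0.0267, limma), a call lost without MycKO library 2 or 3 or DKO library 2 or 3 (adjusted p = 0.0852 to 0.104), when 1 gene was left. In DKO against MlxKO cells, where 30.1% passed and 13.9% were lower, 5 genes were lower: Shmt1, Shmt2, Mthfd1, Mthfd1l and Phgdh, by 1.71-, 1.62-, 1.53-, 1.46- and 1.32-fold. The groups did not overlap for 3 of 9 genes against MycKO and 6 of 9 against MlxKO cells, as for 49.7% and 54.4% of all genes tested. The call of Phgdh was lost without MlxKO library 2 or 3 or DKO library 2 (adjusted p = 0.0551 to 0.0596). Scaling by library totals kept the same 5 genes, while the share of all calls that were higher moved from 54.0% to 29.2% and the median of all genes by -0.15.

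The immortalized interaction passed for 2 of 9 genes, with 47.4% of all genes tested past the threshold, 23.7% positive and 23.8% negative. Psat1 had 0.72 (SE 0.148, adjusted p = 0.00202, limma), opposite in sign to the primary value of -0.33, since Psat1 was lower after Mlx loss with Myc present and higher with Myc absent. This call was kept under every alternative and omission. Shmt1 had -0.49 (adjusted p = 0.0323, limma), a call lost without WT library 1, MlxKO library 1 or 2, MycKO library 1 or 2, or DKO library 2 or 3 (adjusted p = 0.0513 to 0.0868). The count was 1 without WT library 1, MlxKO library 2, MycKO library 2 or DKO library 2 or 3, and 3 without WT library 3, where Mthfd1 joined at -0.48 (adjusted p = 0.0214). With reads divided by library totals the median of all genes moved by -0.16, the share of calls that were positive from 49.9% to 37.2%, and the count to 4. Phgdh, Mthfd2 and Psph had -0.32, 0.42 and 0.42 without passing (adjusted p = 0.0888, 0.0628 and 0.115, limma).

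Whether the knockout effects differed between primary and immortalized cells was tested on the effects themselves, in a joint fit of 24 libraries over 12402 genes. The effect of losing both genes differed for 4 of 9 genes, each less negative in immortalized cells, with 21.2% of all genes tested past the threshold and 11.4% in that direction. Shmt1 changed by 1.33 on the log2 scale, from -1.72 to -0.40 (SE 0.142, adjusted p = 1.12e-06, limma). Psat1, Mthfd1 and Phgdh changed by 0.63, 0.61 and 0.58 (adjusted p = 0.000566, 0.0114 and 0.00124, limma). The 4 calls were kept under every alternative and omission, also without immortalized WT library 3. For Mthfd1l and Psph the effects were not shown to differ, with changes of -0.11 and 0.12 (95% intervals -0.35 to 0.13 and -0.22 to 0.46).

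For Myc loss the difference between states passed for 2 of 9 genes, with 39.7% of all genes tested past the threshold and 21.4% in the same direction as these. Shmt1 fell less in immortalized cells, by a difference of 0.65 (adjusted p = 0.00119, limma), which was kept throughout. Mthfd1l had 0.30 (adjusted p = 0.0435, limma), a call lost without any one of primary WT libraries 1 to 3, primary MycKO library 1 or 3, immortalized WT library 1 or 2 or immortalized MycKO library 2 or 3 (adjusted p = 0.0560 to 0.125), when 1 gene was left. Without immortalized WT library 3 the count was 4, with Shmt2 and Mthfd1 at 0.39 and 0.48 (adjusted p = 0.0406 and 0.00617, limma). With reads divided by library totals, which moved the median of all genes by 0.10, the count was also 4.

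For Mlx loss the states differed in 6 of 9 genes, with 38.5% of all genes tested past the threshold, 20.3% negative and 18.2% positive. Psph, Mthfd2, Mthfd1l and Psat1 had differences of -0.79, -0.69, -0.48 and -0.48 (adjusted p = 0.000934, 0.000601, 0.00333 and 0.00334, limma), lower in immortalized cells. Shmt1 and Mthfd1 went the other way with 0.47 and 0.44 (adjusted p = 0.0126 and 0.0397, limma). The call of Mthfd1 was lost without any one of primary WT library 1 or 2, primary MlxKO libraries 1 to 3, immortalized WT library 1 or 2 or immortalized MlxKO library 2 or 3 (adjusted p = 0.0516 to 0.114), and the other 5 were kept throughout. Dividing reads by library totals moved the median of all genes by 0.13 here.

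Among themselves, the 8 genes other than Mthfd2l moved closely together over the 12 primary libraries, with Pearson correlations from 0.798 to 0.977 over their 28 pairs. Over the 12 immortalized libraries the same pairs ranged from -0.194 to 0.924. The 8 pairs with Mthfd2l ranged from 0.051 to 0.367 in primary and from -0.128 to 0.718 in immortalized cells. These are descriptions over libraries that share their groups, depth and scaling.

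Over both tables, the genes most like each of these were sought among 11772 others by the lower of the 2 correlations over 12 libraries. Sfxn1, the mitochondrial serine carrier, was most like Psat1 (0.968), followed by Nudt5 (0.956) and Gas5 (0.953). Gart, a purine synthesis enzyme that uses formyl folate, was most like Mthfd1 (0.965). The translation factors Eef2 and Eif2s2 were most like Shmt2 (0.958) and Mthfd2 (0.943). Cyp51, a sterol synthesis enzyme, was most like Mthfd1l (0.937), and Tkt, the transketolase, was most like Phgdh (0.883). Trap1 and Tbpl1 were most like Shmt1 and Psph (both 0.913), and Zfp157 was most like Mthfd2l, at 0.788.

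In primary MycKO cells the lists of the wider pathway held calls in shares to be read against all genes tested, of which 42.3% passed and 21.9% were lower. Of the genes of serine uptake and use 2 of 11 were higher and 4 lower, led by the amino acid transporters Slc1a5 (-1.06 on the log2 scale) and Slc38a1 (-0.59) and by Sfxn1 (-0.60). Of folate uptake and retention 1 of 7 was higher and 3 lower. The lower genes were the reduced folate carrier Slc19a1 at -0.83, the folate receptor Folr2 at -0.82 and Fpgs, which adds glutamates to folate, at -0.44. The macrophage markers also fell in these cells, and the part of other cells in the values of these lists, Folr2 among them, was not tested. Of the other folate enzymes 0 of 9 were higher and 4 lower, with Gart at -0.77, the mitochondrial Aldh1l2 at -0.70 and the thymidylate synthase Tyms at -0.69.

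The methionine cycle list also holds the cystathionine-cleaving Cth, which lies outside the cycle itself. Of this list 0 of 6 were higher and 4 lower in these cells. Cth was at -1.13, Ahcy at -0.73 and the methionine synthase Mtr at -0.38. Of glycine cleavage 1 of 3 was lower, Gcsh at -0.61. Amino acid stress markers outside the pathway, several of them ATF4 targets, were split with 2 of 10 higher and 3 lower, with the cystine carrier Slc7a11 at -1.33, Atf5 at 0.57 and the glycyl-tRNA synthetase Gars at -0.34. The list medians were -0.10, -0.24, -0.24, -0.36, -0.17 and -0.11 in the order serine use, folate uptake, other folate, methionine, glycine cleavage and stress, beside 0.00 for all genes. In primary MlxKO cells, where 8.88% of all genes passed, 5 of these 6 lists had 1 gene higher and glycine cleavage had none, and the only gene lower was Tyms at -0.51. In primary DKO cells, where 49.5% of all genes passed and 25.5% were lower, the other folate enzymes had 4 of 9 higher and 4 lower, with Gart at -0.99, and the methionine cycle had 5 of 6 lower, led by Ahcy at -0.98. Serine uptake and use had 3 of 11 higher and 3 lower there, glycine cleavage 2 of 3 lower, folate uptake 3 of 7 lower, and the stress markers 1 of 10 higher and 3 lower.

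**Figure D5:**
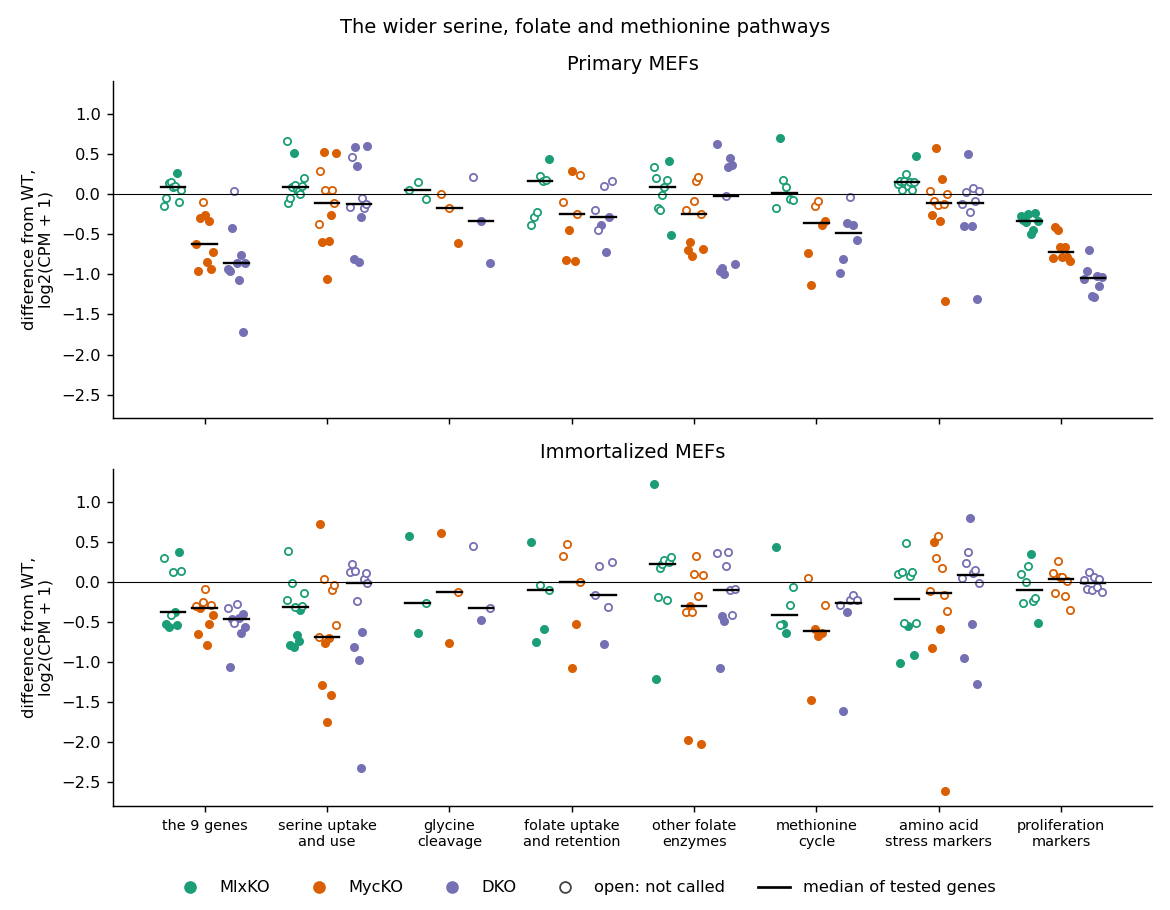
Log2 difference from WT of each tested gene, as points, for the 9 genes and for 7 lists of related genes, primary above and immortalized below, with open circles where the adjusted p is not under 0.05 and lines at the list medians. In primary cells the medians of the 9 genes lie at -0.63 in MycKO and -0.85 in DKO cells and those of the proliferation markers at -0.72 and -1.04, whereas in immortalized cells the proliferation markers lie near 0.

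Carriers of serine and of folate were also among the calls in immortalized cells. In MycKO cells, where 48% of all genes passed and 23.5% were lower, serine uptake and use had 1 of 11 higher and 5 lower, with Slc1a5 at -1.74, Slc38a2 at -1.41 and Sfxn1 at -1.29, and folate uptake had 2 of 5 lower, with Slc19a1 at -1.07. The other folate enzymes had 0 of 9 higher and 3 lower, among them Sardh at -2.02 and Aldh1l2 at -1.97. The methionine cycle list, Cth included, had 4 of 6 lower, with Cth at -1.47. Glycine cleavage had 1 of 3 higher and 1 lower. The stress markers had 1 of 10 higher and 3 lower, with Slc7a11 at -2.61 and the asparagine synthetase Asns at -0.82. The medians were -0.69 for serine uptake and use, -0.61 for the methionine cycle, -0.30 for other folate enzymes, -0.14 for the stress markers, -0.13 for glycine cleavage and -0.0010 for folate uptake, the last equal to that of all genes.

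In immortalized MlxKO cells, where 38.9% of all genes passed and 19.9% were lower, serine uptake and use had 5 of 11 lower, with the serine and alanine carrier Slc1a4 at -0.82, Sfxn1 at -0.78 and Slc38a2 at -0.74. The stress markers had 3 of 10 lower, among them Asns at -1.01. The other lists went both ways, with 1 higher and 1 lower among 9 other folate enzymes and among 3 genes of glycine cleavage, and 1 higher and 2 lower among 5 genes of folate uptake and 6 of the methionine cycle. The medians were -0.41 for the methionine cycle, -0.31 for serine uptake and use, -0.26 for glycine cleavage, -0.22 for the stress markers, -0.10 for folate uptake and 0.23 for the other folate enzymes.

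In immortalized DKO cells, where 18.9% of all genes passed and 8.51% were lower, serine uptake and use had 4 of 11 lower, led by Slc38a1 at -2.32, and the stress markers had 1 of 10 higher and 3 lower, with Slc7a11 at -1.28. The other folate enzymes had 3 of 9 lower, the methionine cycle 2 of 6, glycine cleavage 1 of 3 and folate uptake 1 of 5. The medians lay between -0.32 for glycine cleavage and 0.08 for the stress markers, with serine uptake and use at -0.01. Aldh1l2, which oxidizes formyl folate in mitochondria, was lower in all 3 immortalized knockouts, at -1.97, -1.21 and -1.07 in MycKO, MlxKO and DKO cells. The macrophage markers were nearly absent from the immortalized cells, summing to 1.48 to 5.80 CPM with 4 of 8 at 0 in every library of WT, MlxKO and DKO cells and 2 of 8 in MycKO cells. Endothelial markers summed to 3.10 to 5.05 CPM in WT, 5.66 to 7.11 in MlxKO, 14.4 to 19.1 in MycKO and 7.64 to 9.002 in DKO libraries. Neural markers summed to 64.1 to 105 CPM in WT, 103 to 151 in MlxKO, 88.5 to 125 in MycKO and 50.8 to 73.9 in DKO libraries. Epithelial markers summed to 0.365 to 5.91 CPM in WT and 0.102 to 1.60 in the knockouts, and muscle markers to at most 0.703 CPM. The part of these cells in the immortalized values of the 9 genes was not tested.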

How the data were processed

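RNA of 24 libraries in 8 groups was analysed. With CLC Genomics Workbench and the GRCm39 genome, the authors counted reads per gene and deposited a signal given as CPM, scaled between libraries in a way not given in the sources used here, in separate tables of primary and immortalized cells. The tables held 41710 genes in 12 libraries each, and the sums of the deposited signal differed between libraries (915691 to 1077213), so it was not rescaled. Each of the 395855 nonzero values checked was a whole multiple of the value of 1 read within 0.01, and the recovered reads (15986856 to 20966163 per library) gave the depth, in which 3 reads are 0.145 to 0.196 CPM. Genotype and state of each library were read from the labels and column headings. Within a group, libraries 1 to 3 follow the numbers in the headings, and no source links these to replicate numbers.

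log2(CPM + 1) was fitted with limma 3.58.1 (R 4.3.3), with a trended variance prior and the 4 genotypes of a table fitted together. Genes had to reach 1 CPM in 3 or more of 12 libraries. That left 13101 primary and 12880 immortalized genes. P-values are two-sided and Benjamini-Hochberg adjusted over all genes tested, with a threshold of 0.05, and differences understate the change of low genes. Each table gave 6 comparisons, and a joint fit of both tables tested 3 differences of effects over 12402 genes. Levels were never tested between tables. An exact permutation test of 3 against 3 libraries cannot go below 0.1 and was not used.

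Alternatives were a pseudocount of 0.1, no filter, a mean of at least 5 CPM, median-ratio scaling, reads divided by library totals, only the compared groups, a robust prior, edgeR 4.0.16 and DESeq2 1.42.0 on recovered reads, and the omission of each library. The script was tested on simulated data. Members, gene lists and marker lists were chosen with earlier results of these data known. All 9 members are reported, and from each list at most 3 genes with the largest difference among those past the threshold. Some genes of these lists are not reported here, and counts and medians were computed without them. Start sites, lengths and sequences came from GENCODE vM39 on GRCm39, which gave 41181 of the 41710 genes and all 9 members. Protein sequences were not used here.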

Additional observations from a re-analysis of the deposited data

Results flagged for a closer look

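Each value here is a difference between 2 effects that passed a test of that difference (limma, adjusted p under 0.05), with 3 libraries a group. Groups of 3 were too small for a test of outlying libraries. The interaction term passed in primary cells for Phgdh (-0.68), Psph (-0.69), Shmt1 (-0.69) and Psat1 (-0.33). Each had a lower difference after Mlx loss in cells without Myc than in cells with it. In immortalized cells the term passed for Shmt1 (-0.49) and, with the opposite sign, for Psat1 (0.72). Psat1 was lower after Mlx loss with Myc and higher without it. In either state, a dependence on Myc and the exposure to active Cre, which WT cells lacked, cannot be told apart in this term.

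The effect of DKO against WT was less negative in immortalized than in primary cells for Shmt1 (1.33), Psat1 (0.63), Mthfd1 (0.61) and Phgdh (0.58). The effect of MycKO was less negative for Shmt1 (0.65) and Mthfd1l (0.30). The effect of MlxKO was lower in immortalized cells for Psph (-0.79), Mthfd2 (-0.69), Mthfd1l (-0.48) and Psat1 (-0.48) and higher for Shmt1 (0.47) and Mthfd1 (0.44). Proliferation markers fell with the knockouts in primary cells and not in immortalized MycKO or DKO cells, and their part in these differences was not tested.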

How the results depend on the processing

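The 24 falls of 8 genes in primary MycKO and DKO cells against WT and in DKO against MlxKO cells, and the 4 differences in DKO effect between states, were kept under each of the 9 other settings and each omitted library. No paired analysis was possible because no source links the library numbers in the headings to replicate numbers. Omitting each library in turn, the count of genes called ranged from 0 to 1 in primary MlxKO against WT (main 1), 4 to 6 in primary DKO against MycKO (5), 3 to 5 in the primary interaction (4), 3 to 5 in immortalized MycKO (5), 2 to 6 in MlxKO (5) and 3 to 6 in DKO (6) against WT, 1 to 2 in immortalized DKO against MycKO (2), 4 to 5 in DKO against MlxKO (5), 1 to 3 in the immortalized interaction (2), and 1 to 4 for the difference of MycKO effects (2) and 5 to 6 for that of MlxKO effects (6). With only the compared groups in the fit the count was 0 in primary MlxKO, 3 in immortalized MycKO and 2 in immortalized DKO cells against WT, and 1 for the difference of MycKO effects, for which edgeR and DESeq2 also gave 1. Median-ratio scaling gave 0 in primary MlxKO cells. Reads divided by library totals gave 4 in the immortalized interaction and 4 for the difference of MycKO effects. The cause of these changes was not tested. The fits of only the compared groups and those with a library omitted also held fewer libraries. Of all 135 tests of a gene in a comparison, 18 changed sign under some setting or omission, and each of the 18 had not passed. Those whose differences the report prints were Mthfd2l in primary MycKO cells (-0.24 to 0.041 on omission) and DKO cells (-0.061 to 0.18 on omission, -0.029 with library totals), Mthfd2l in immortalized MycKO cells (-0.45 to 0.056 on omission) and Mthfd1l in primary DKO against MycKO cells (-0.052 to 0.034 on omission, 0.014 with library totals, 6.56e-05 with edgeR). Over the 135 tests, calls were lost 19 times and gained 9 times under other settings, and lost 70 times and gained 15 times on omission of a library. With library totals the share of all calls that were higher moved from 42.2% to 53.8% in primary MlxKO against WT, and in the differences of effects between states from 54.1% to 66.0% for MycKO, 47.4% to 63.7% for MlxKO and 53.9% to 66.6% for DKO. Depth limits the lowest gene, Shmt1 in primary DKO cells, with as few as 60 reads in a library, and the 3 libraries a group limit all tests.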
